A study of Mus musculus with 12 samples.

Results

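Of the 27998 genes counted in single cells of the mouse mammary gland, 9 were followed here: the receptors for ovarian and adrenal steroids and their close partners. They were found by their symbols in the gene list of each library. The set held the nuclear estrogen receptors Esr1 and Esr2, the progesterone receptor Pgr, the glucocorticoid receptor Nr3c1 and the mineralocorticoid receptor Nr3c2. It also held Gper1, a membrane receptor that binds estrogen, Pgrmc1, a heme-binding membrane protein linked to progesterone, Greb1, a classical estrogen target gene, and Nrip1, a corepressor that binds ligand-activated nuclear receptors.

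Steroid receptors are transcription factors that wait in chaperone complexes, bind their hormone, and then recruit coactivators or corepressors at their target genes. In the mammary gland, estrogen acting through Esr1 drives duct growth and switches on Pgr, and progesterone acting through Pgr drives side branching. Both receptors are known in hormone-sensing luminal cells, and some stromal fibroblasts of the gland carry estrogen receptor as well.

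The 12 libraries came from the fourth mammary glands of C57BL/6J females aged 43 weeks, 1 library per group, so that no group had a replicate library. The Intact group kept its ovarian function. The other 11 groups had received 4-vinylcyclohexene diepoxide (VCD, 160 mg/kg/day for 15 days), which depletes ovarian follicles and models menopause. VCD_Vehicle had no further agent, and VCD_Vehicle_NormEnv was kept in an environment where PBDE could reach the mice from plastic cages. VCD_E2 received estradiol (E2, 1 µg per animal a day for 1 week), VCD_E2_P4 received E2 with progesterone (P4, 1 mg per animal a day), and VCD_E2_ICI received E2 with 5 mg per animal of ICI, an estrogen receptor antagonist and degrader. VCD_Low_PBDE, VCD_Low_E2 and VCD_Low_E2_P4 ate a mixture of brominated flame retardants (PBDE-47 at 0.05, PBDE-100 at 0.0028 and PBDE-153 at 0.0063 mg/kg/day) for 20 weeks. VCD_High_PBDE, VCD_High_PBDE_E2 and VCD_High_PBDE_E2_P4 ate 1, 0.056 and 0.126 mg/kg/day of the same compounds for 1 week, so dose and duration of PBDE cannot be told apart. The sources do not say how many animals entered a library.

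The files held 58620 cell barcodes, of which 46257 passed the limits on genes, UMIs and mitochondrial share. A UMI is a molecular barcode that stands for 1 captured transcript. The libraries held 41737881 to 109224969 UMIs (median 62355232), and their cells had a median of 11843 to 20446 UMIs. Of 45975 distinct barcodes among the cells kept, 274 occurred in more than 1 library. Cells were gated by marker genes into 29024 fibroblasts, 6395 immune cells, 164 endothelial cells and 178 luminal epithelial cells, and 10504 cells entered no gate. Among the fibroblasts, 13864 carried Dpp4 and Pi16 (Dpp4+), 10990 had at most 1 UMI of both together (Dpp4-), and 4170 lay between these gates. The Dpp4- cells were split further into Fabp4+ (3678), F3+ (2264) and Tnc+ (573) fibroblasts, and the immune cells into T cells (2355), macrophages (903) and B cells (121). Sums over fewer than 10 cells were not tested, which left luminal cells in 6 libraries and endothelial cells in 3.

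The levels of marker genes were read in the gated cells. The summed level of 6 luminal markers was 9454 to 24415 UMIs per 1000000 UMIs of the gated sum (CPM) in luminal cells and 36.9 to 72.6 CPM in fibroblasts. The luminal gate used these 6 genes, so their high level in luminal cells follows from the gate and does not check it. Epcam, Ptprc, Cd52 and Pecam1 were at 0 in fibroblasts by the gate itself. The VCD_Low_E2_P4 library stood apart, with the most barcodes (10006) and the lowest median UMI count. Its fibroblast markers summed to 7019 CPM in immune cells, against 566 CPM in Intact to 1982 CPM in VCD_Vehicle_NormEnv over the other 11 libraries, and to 8440 CPM in luminal cells. It also gave 81 of the 164 endothelial cells. Several of the members' calls in endothelial and luminal cells are therefore also given without it. Not all of the remaining calls between cell types have such a value, and those of fibroblasts against immune cells have none.

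All coordinates are on GRCm38. Esr1 (ENSMUSG00000019768) lies on chromosome 10 at 4611593-5005614 on the plus strand, Esr2 (ENSMUSG00000021055) on chromosome 12 at 76120419-76177259 on the minus strand, and Pgr (ENSMUSG00000031870) on chromosome 9 at 8899833-8968611 on the plus strand. Greb1 (ENSMUSG00000036523) lies on chromosome 12 at 16670615-16800886 on the minus strand, and Nrip1 (ENSMUSG00000048490) on chromosome 16 at 76287400-76373827 on the minus strand. Nr3c2 (ENSMUSG00000031618) lies on chromosome 8 at 76899442-77245012, Gper1 (ENSMUSG00000053647) on chromosome 5 at 139423151-139427800 and Pgrmc1 (ENSMUSG00000006373) on chromosome X at 36598206-36606079, all on the plus strand.

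The promoters of Pgr and Greb1 are shown because both genes spread widely between libraries and had the same first, second and last library in Dpp4+ fibroblasts. Each sequence is the 250 bases before the annotated start, from RefSeq (GRCm38.p6), chr9:8899583-8899832 on the plus strand and chr12:16800887-16801136 on the minus strand, and neither overlaps an exon. Capitals mark a single arm of the palindromic estrogen response element, GGTCA or its reverse complement TGACC.
Pgr: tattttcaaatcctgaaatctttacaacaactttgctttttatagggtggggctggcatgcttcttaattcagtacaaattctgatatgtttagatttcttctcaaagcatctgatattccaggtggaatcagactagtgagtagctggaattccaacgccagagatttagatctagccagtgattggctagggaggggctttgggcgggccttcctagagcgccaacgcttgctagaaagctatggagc
Greb1: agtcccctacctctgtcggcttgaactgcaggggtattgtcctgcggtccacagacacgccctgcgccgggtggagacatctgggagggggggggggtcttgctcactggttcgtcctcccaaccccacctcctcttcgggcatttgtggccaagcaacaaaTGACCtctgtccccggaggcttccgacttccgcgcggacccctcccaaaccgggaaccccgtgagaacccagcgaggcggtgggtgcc
The printed Greb1 window held 1 such arm, 88 bases before the start, and the Pgr window held none. The window of a second annotated Greb1 start, not printed because it overlaps an annotated UTR, held 2. Among the other members, the 250 bases before the RefSeq start of Nr3c2 and Esr2 held 2 such arms and those of Nrip1 held 1. The Nr3c2 window, at 76902080-76902329, lies inside the gene span given above and overlaps annotated UTRs. These letters, searched on both strands, occurred in 40.5% of 32851 promoter windows that also ran 50 bases past the start. The full element, GGTCA followed by TGACC with 3 bases between, occurred in 0.0700% of them and in none of the windows of the members read, which did not include Nr3c1. The element arm TGTTCT, read by the glucocorticoid and progesterone receptors, occurred in 19.0% of windows and, among the same members, in that of Pgrmc1.

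The estrogen receptor Esr1 was found in fibroblasts and luminal cells. In Dpp4+ fibroblasts its level was 63.5 CPM in the lowest library, 75.2 CPM at the median and 90.5 CPM in the highest. In Dpp4- fibroblasts it was 19.8, 33.4 and 53.8 CPM, so that no Dpp4- library reached the lowest Dpp4+ library. Within the Dpp4- cells the Fabp4+ cells had a median of 42.4 CPM, and the Tnc+ cells ranged from 3.89 to 22.6 CPM. Luminal cells had 24.8 to 66.8 CPM over 6 libraries (median 40.6 CPM). Macrophages had 8.21 to 20.3 CPM and T cells 1.09 to 6.53 CPM, so that the highest macrophage library lay just above the lowest Dpp4- fibroblast library. The second nuclear estrogen receptor, Esr2, was close to absent, with 2 UMIs in 29024 fibroblasts, 1 UMI in 6395 immune cells and none in the luminal or endothelial cells. Gper1 had 16 UMIs in all fibroblasts and 7 UMIs in 3 of the 164 endothelial cells. At these counts neither gene could be compared between treatments.

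**Figure D1:**
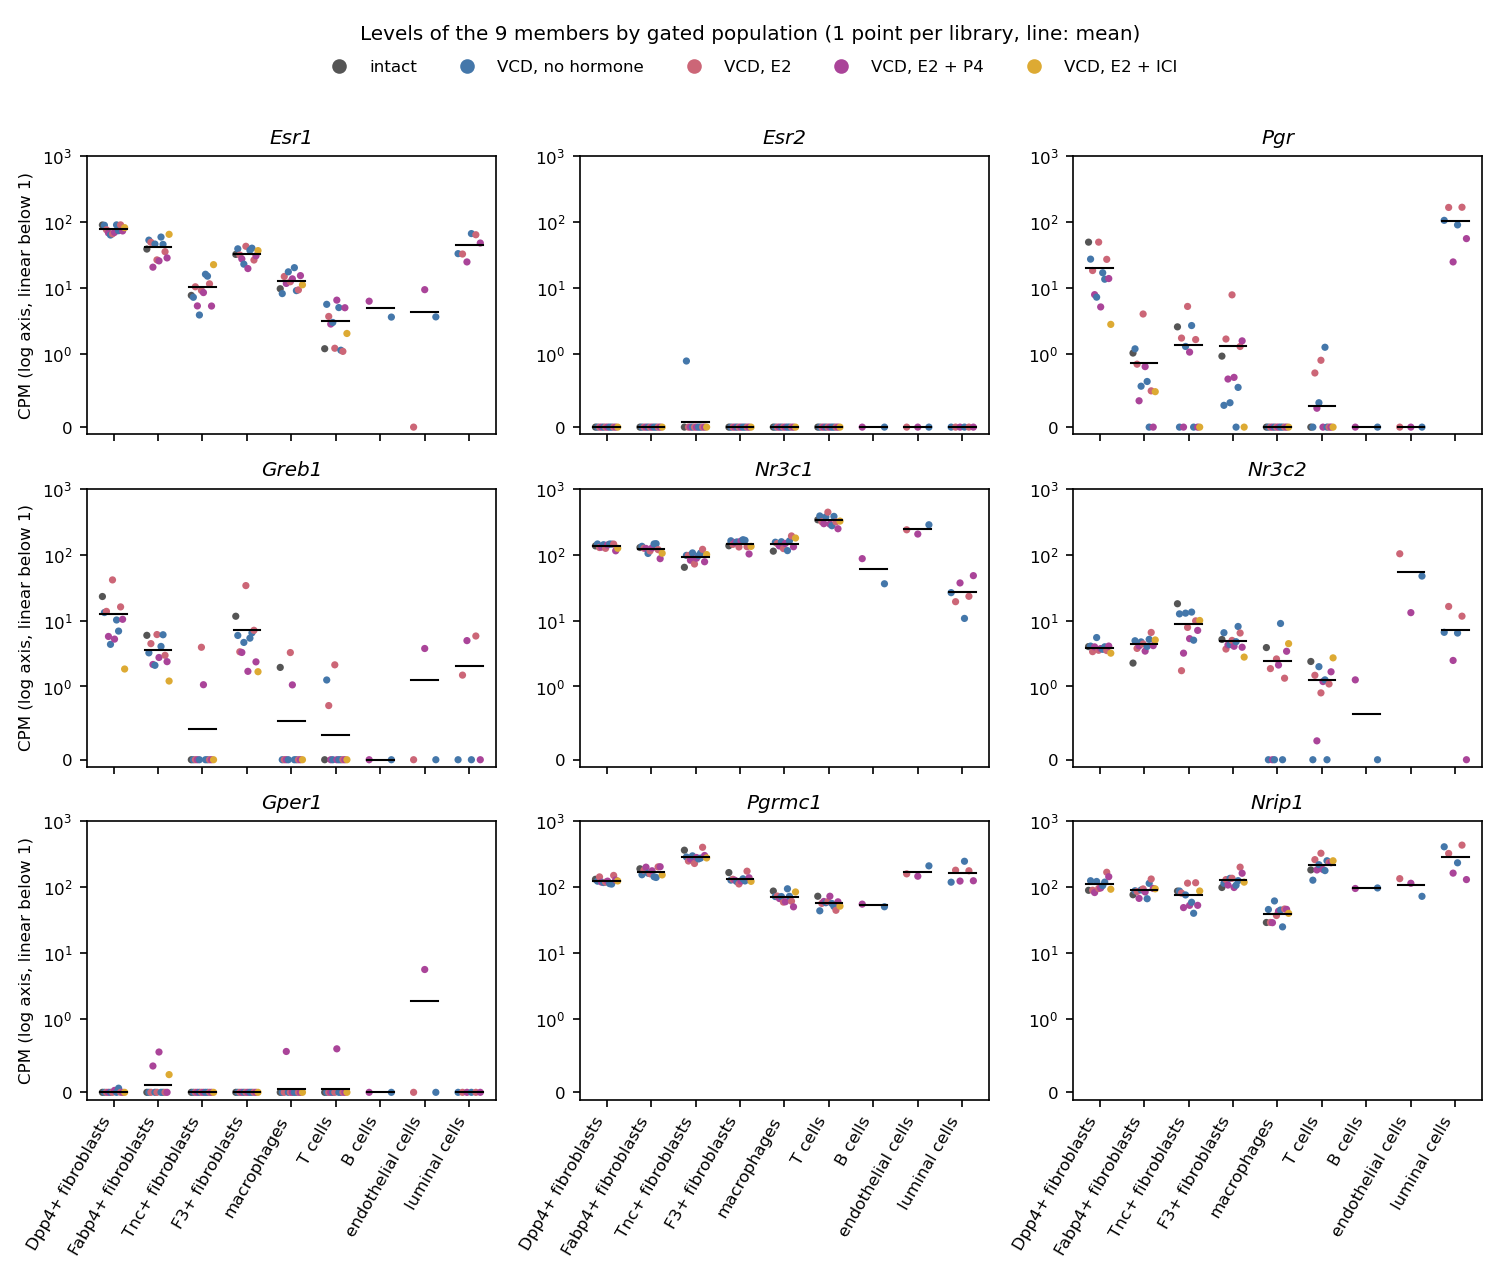
Level of each of the 9 genes in 9 gated populations, in CPM on an axis that is logarithmic above 1 and linear below, with 1 point per library of at least 10 cells, coloured by hormone, and a line at the mean. Pgr lay between 2.80 and 49.6 CPM in Dpp4+ fibroblasts and between 24.8 and 168 CPM in luminal cells, and at or below 7.86 CPM in the other 7 populations.

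The progesterone receptor Pgr was found mainly in luminal cells and Dpp4+ fibroblasts. Its level was 24.8 CPM in the lowest luminal library, 98.3 CPM at the median and 168 CPM in the highest. In Dpp4+ fibroblasts it was 2.80, 15.5 and 49.6 CPM, and in Dpp4- fibroblasts 0.189, 0.576 and 7.30 CPM. To compare shares, cells with at least 5000 UMIs were thinned to that number and shallower cells were left out. Pgr was then found in 38.0% of 92 luminal cells, 6.45% of 13493 Dpp4+ fibroblasts and 0.520% of 10193 Dpp4- fibroblasts. The share in 4220 immune cells was 0.118% (median depth before thinning 6787 UMIs, against 19357 UMIs in Dpp4+ fibroblasts). Over all cells, without thinning, these shares were 40.4%, 16.5%, 1.23% and 0.266%. Macrophages gave 0 Pgr UMIs in 903 cells, which allows a share of up to 0.332% of cells with a UMI, and the level in Dpp4+ fibroblasts was at least 71.5-fold higher. Endothelial cells gave 0 in 164 cells, which allows up to 1.83%, and luminal cells were at least 74.6-fold and all fibroblasts at least 7.04-fold higher. These bounds set 3 counts over the whole group against the sum over all 12 libraries and cover counting error only. Pgrmc1, in contrast, was found in every population, with 127 to 197 CPM in fibroblasts, 119 to 248 CPM in luminal cells and 46.1 to 64.6 CPM in immune cells.

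The adrenal steroid receptors had other patterns. The glucocorticoid receptor Nr3c1 (ENSMUSG00000024431, on chromosome 18) was found in every population. T cells had 247, 320 and 441 CPM (lowest, median and highest library), and endothelial cells, which overlapped them, 205, 238 and 284 CPM. Macrophages had 113, 148 and 192 CPM, below every library of T cells, and fibroblasts 110, 131 and 148 CPM. Luminal cells had 10.8, 24.9 and 48.0 CPM, below every library of the other populations apart from B cells. The mineralocorticoid receptor Nr3c2 was highest in endothelial cells, at 103 CPM in VCD_Low_E2, 47.3 CPM in VCD_Vehicle_NormEnv and 13.2 CPM in VCD_Low_E2_P4. In fibroblasts it was between 3.67 and 5.49 CPM, below all of these 3 libraries, whereas the highest library of Tnc+ fibroblasts (18.0 CPM) and of luminal cells (16.4 CPM) exceeded the lowest of them. Pooled over all libraries, 18.0% of endothelial cells thinned to 5000 UMIs held an Nr3c2 UMI, against 2.14% of fibroblasts and 0.640% of immune cells. VCD_Low_E2_P4 gave 35 of those 100 endothelial cells, of which 1 held an Nr3c2 UMI (2.86%), against 6 of 18 in VCD_Low_E2 (33.3%).

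Of the partners, Greb1 was found mainly in fibroblasts. It had 1.84, 10.3 and 41.4 CPM in Dpp4+ fibroblasts, 1.68, 5.04 and 33.9 CPM in F3+ fibroblasts, and 0.864, 3.35 and 15.4 CPM in all Dpp4- fibroblasts. Luminal cells, where Pgr was highest, gave 7 Greb1 UMIs in 178 cells, and immune cells had between 0 and 1.79 CPM. Nrip1 was found in every population. T cells had 128, 228 and 328 CPM and luminal cells 131, 280 and 436 CPM, whereas macrophages had 25.1, 41.8 and 62.0 CPM.

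The cell types were compared within libraries by edgeR's quasi-likelihood test on summed UMIs with the library as a block. Every adjusted p in the text comes from edgeR's test, unless DESeq2 is named, with Benjamini-Hochberg adjustment over all genes tested. The fits of E2, P4 and PBDE within a gate had hormone and PBDE terms in place of the block. Of the 9 members, 7 had enough UMIs to be tested. Between fibroblasts and immune cells 5 were higher and 1 lower in fibroblasts, where 81.3% of 14839 genes differed (43.4% higher, 37.9% lower). Esr1 was higher in fibroblasts by a log2 fold of 3.38 ± 0.15 (SE, adjusted p = 1.7e-16), Greb1 by 4.63 ± 0.27, Pgr by 5.37 ± 0.30, Nr3c2 by 1.90 ± 0.28 and Pgrmc1 by 1.55 ± 0.10, each in 12 of 12 libraries. Pgr, Greb1 and Nr3c2 had only 17, 27 and 76 UMIs in all immune cells. They passed the filter on low counts through other cell types, so the direction of their calls was largely set by it. Nr3c1 was lower in fibroblasts in 12 of 12 libraries, with a log2 fold of -0.49 ± 0.10 (adjusted p = 0.00015). Nrip1 did not pass, with a log2 fold of -0.21 ± 0.13 (adjusted p = 0.15) and lower values in 9 of 12 libraries.

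Against luminal cells, fibroblasts were higher in 4 members and lower in 2, where 57.5% of genes differed (36.2% higher, 21.3% lower). Pgr was lower in fibroblasts in 6 of 6 libraries (log2 fold -2.89 ± 0.24, adjusted p = 8.1e-10), and so was Nrip1 (-0.93 ± 0.19, adjusted p = 0.00015). Nr3c1 was higher in fibroblasts in 6 of 6 libraries (2.82 ± 0.20), and Greb1 in 5 of 6 (2.73 ± 0.54). Without VCD_Low_E2_P4 these log2 folds were -2.95 for Pgr, -1.23 for Nrip1, 2.88 for Nr3c1 and 2.57 for Greb1. Greb1 had only 7 UMIs in all luminal cells and was at 0 in 3 of the 6 luminal libraries. It passed the filter on low counts through other cell types, so the direction of its call was largely set by it. Esr1 was higher in fibroblasts by 0.77 ± 0.23 (adjusted p = 0.0050), in 4 of 6 libraries, and this call was lost without the library VCD_E2_P4 (0.54, adjusted p = 0.070), with DESeq2 size factors (0.52, adjusted p = 0.052) and without the 2% of cells with most UMIs (0.51, adjusted p = 0.16). The remaining call, Pgrmc1 at 0.33 ± 0.14 (adjusted p = 0.041), was higher in 3 of 6 libraries and was lost under each of 8 other settings and without any of 6 libraries, for example without VCD_Low_E2_P4 (0.08, adjusted p = 0.66).

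Endothelial cells had the most Nr3c2. Fibroblasts were higher in 3 members and lower in 1, where 32.8% of genes differed between these types (21.2% higher, 11.7% lower). The endothelial sums of the 3 libraries tested also held fibroblast markers at 329 CPM in VCD_Low_E2, 4253 CPM in VCD_Vehicle_NormEnv and 11900 CPM in VCD_Low_E2_P4, and pericyte markers at 179 to 739 CPM, against 9.51 to 26.1 CPM in fibroblasts. Nr3c2 was at 103, 47.3 and 13.2 CPM in these libraries, highest where both lists were lowest, and their part in these results was not tested. Nr3c2 was lower in fibroblasts in 3 of 3 libraries (-3.09 ± 0.46, adjusted p = 9.3e-06; -3.78 without VCD_Low_E2_P4), and Esr1 was higher (4.14 ± 0.53; 5.73 without that library). Greb1 was higher in fibroblasts, against 3 UMIs in all endothelial cells, and this call was lost without VCD_Low_E2 (1.58, adjusted p = 0.26). Pgr was the other call, against 0 UMIs. Esr1 had only 8 UMIs in all endothelial cells, with 0 CPM in VCD_Low_E2. Esr1, Pgr and Greb1 passed the filter on low counts through other cell types, so the direction of these calls was largely set by it. Immune cells were lower than endothelial cells in 2 members, Nr3c2 (-4.98 ± 0.50; -5.65 without VCD_Low_E2_P4) and Pgrmc1 (-1.30 ± 0.18; -1.50 without it), where 42.2% of genes differed (18.7% lower, 23.5% higher). Immune cells were higher than luminal cells in 1 member, Nr3c1 (3.31 ± 0.20; 3.41 without VCD_Low_E2_P4), and lower in 6, where 57.9% of genes differed (32.7% higher, 25.1% lower). These 6 included Esr1 (-2.60 ± 0.26) and Nrip1 (-0.72 ± 0.19), which were -2.90 and -1.01 without that library, and the weakest, Greb1 (adjusted p = 0.046), was lower in 3 of 6 libraries and was lost without any of 7 of the 12 libraries. Pgr, Greb1 and Nr3c2, all among the 6, had only 17, 27 and 76 UMIs in all immune cells. They passed the filter through other cell types, so the direction of their calls was largely set by it. Endothelial cells were higher than luminal cells in 2 members, Nr3c1 (3.18 ± 0.25) and Nr3c2 (2.60 ± 0.58), and lower in 3, among them Esr1 (-3.36 ± 0.61), which were 3.44, 2.87 and -5.15 without VCD_Low_E2_P4, where 35.2% of genes differed (19.6% higher, 15.5% lower). Of the 12 libraries, 2 held enough cells of both of these types, and without VCD_Low_E2 the Nr3c2 call was lost (1.75, adjusted p = 0.099). For Esr1 the endothelial side again held only 8 UMIs, with 0 CPM in VCD_Low_E2. The direction of its call was thus largely set by the filter on low counts.

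The wider receptor machinery was read as 3 lists. In fibroblasts against immune cells, 5 of 10 other receptors were higher and 2 lower, with a median log2 fold of 1.30 over the list and 0.09 over all genes, of which 43.4% were higher and 37.9% lower. Nenf was higher by 3.14 ± 0.10 and Pgrmc2 by 1.29, and both belong to the same protein family as Pgrmc1. Of 10 receptor chaperones, 1 was higher and 4 lower, and of 16 coregulators and pioneer factors 2 were higher and 8 lower. Over all genes 81.3% differed, and the lists were not tested against this share. The arginine methyltransferase Carm1 (1.50) was higher in fibroblasts, and Gata3, which T cells use, was lower (-7.13). In fibroblasts against luminal cells the pioneer factor Foxa1 (-10.53) and Gata3 (-7.20) were lower, and Ncoa1 (2.09), Nenf (1.50) and Crebbp (1.18) were higher. There, 9 of 16 coregulators were higher and 4 lower, where 36.2% of all genes were higher and 21.3% lower.

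Dpp4+ and Dpp4- fibroblasts differed in all 7 members tested, 5 higher and 2 lower in Dpp4+ cells, where 68.5% of 13812 genes differed (33.6% higher, 35.0% lower). Pgr was higher by a log2 fold of 4.08 ± 0.25 (adjusted p = 8.0e-10), Greb1 by 1.54 ± 0.14 (adjusted p = 7.8e-08) and Esr1 by 1.19 ± 0.10 (adjusted p = 2.5e-08), each in 12 of 12 libraries. Pgrmc1 was lower in 12 of 12 libraries, by a log2 fold of -0.49 ± 0.04 (adjusted p = 4.5e-09). The other differences were smaller: Nrip1 at 0.17 ± 0.06 (9 of 12 libraries), Nr3c1 at 0.13 ± 0.04 (10 of 12) and Nr3c2 at -0.35 ± 0.09 (lower in 10 of 12). Each of the 7 calls held when any 1 library was left out. Luminal markers moved with these results: their sum was 59.6 to 144 CPM in Dpp4+ and 2.59 to 19.9 CPM in Dpp4- fibroblasts. Epcam was at 0 in both, and Krt19 (40.6 CPM) and Cldn3 (11.0 CPM) gave most of the sum over all fibroblasts, with Krt8 and Krt18 near 1 CPM. Their part in the Pgr difference was not tested.

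**Figure D2:**
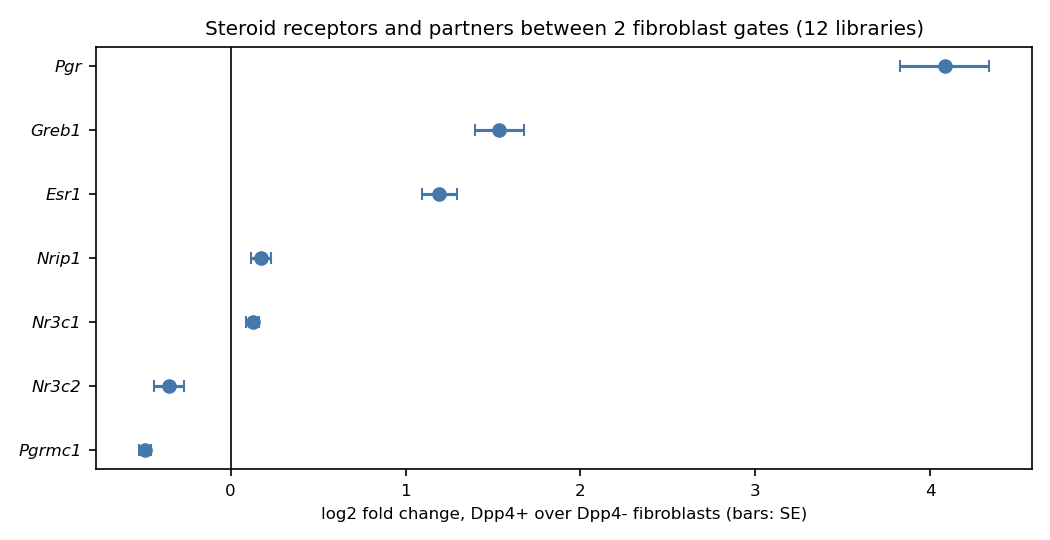
Log2 fold change of Dpp4+ over Dpp4- fibroblasts for the 7 members tested, from 12 libraries with the library as a block, with bars of 1 SE. Pgr stands at 4.08, Greb1 at 1.54, Esr1 at 1.19, and Pgrmc1 and Nr3c2 to the left of 0.

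The lists were read between these gates as well, where 33.6% of all genes were higher and 35.0% lower. Of 7 other receptors tested 3 were higher and 4 lower in Dpp4+ cells, with a median log2 fold of -0.27 against -0.02 over all genes. Paqr7, a membrane progestin receptor, was lower by a log2 fold of -1.06 ± 0.09. Of 10 chaperones 3 were higher and 5 lower, with the cochaperone Bag1 higher by 1.02 ± 0.07. Of 14 coregulators tested 6 were higher and 2 lower, among the former Gata3 (1.64) and the p160 coactivator Ncoa2 (0.51).

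Pairs of members were counted in the same cells of the Dpp4+ fibroblasts. Of 13493 cells thinned to 5000 UMIs, 45.1% of those with a Pgr UMI also held an Esr1 UMI, against 28.2% of those without, and the share with both was above the product of the single shares in 12 of 12 libraries. For Esr1 and Greb1 the values were 40.9% and 28.7%, also in 12 of 12 libraries. Pgr and Greb1 shared 148 cells, 1.10% of all against a product of 0.314%, above the product in 10 of 12 libraries, and 54 of these cells came from VCD_Low_E2. For Esr1 and Nr3c1 the values were 29.9% and 28.8%, above the product in 8 of 12 libraries, and Pgr with Nr3c1 and Esr1 with Nrip1 were above it in 6 of 12. In Dpp4- fibroblasts Esr1 with Greb1 was above the product in 10 of 12 libraries and Esr1 with Nr3c1 in 7 of 12. Pairs with Pgr, which few of these cells held, were above it in 6 of 12 (Nr3c1), 4 of 12 (Esr1) and 2 of 12 (Greb1), and Esr1 with Nrip1 in 4 of 12. Across the 9 populations the genes whose mean log2 level followed Pgr most closely were Pak3 (Pearson r = 0.991), Gm16485 (0.975) and Bdnf (0.972). Gm16485 begins 3180 bases past the annotated end of Pgr on the same strand, and whether 3′ reads of the pair were told apart was not tested. For Esr1 they were Vdac3 (0.945), Wisp2 (0.927) and Prmt2 (0.924), and for Greb1 Lmx1a (0.973), Apol9a (0.971) and Il31ra (0.954). These are descriptions over 9 points that share libraries, among 12961 genes.

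Between libraries, Pgr and Greb1 ranged widely in Dpp4+ fibroblasts. Without hormone Pgr was at 27.4 CPM in VCD_Vehicle, 17.0 in VCD_Vehicle_NormEnv, 7.25 in VCD_Low_PBDE and 13.6 in VCD_High_PBDE. With E2 it was at 18.4 CPM in VCD_E2, 49.6 in VCD_Low_E2 and 27.2 in VCD_High_PBDE_E2, and with E2 and P4 at 7.92, 5.15 and 13.9 CPM. The Intact library had 49.5 CPM and VCD_E2_ICI 2.80 CPM. Thus VCD_Low_E2 and Intact were the 2 highest libraries and VCD_E2_ICI the lowest, and the libraries without hormone overlapped those with E2.

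Greb1 gave the same first, second and last library. It was at 13.2 CPM in VCD_Vehicle, 10.2 in VCD_Vehicle_NormEnv, 4.35 in VCD_Low_PBDE and 6.93 in VCD_High_PBDE. With E2 it was at 13.8 CPM in VCD_E2, 41.4 in VCD_Low_E2 and 16.1 in VCD_High_PBDE_E2, and with E2 and P4 at 5.74, 5.23 and 10.4 CPM. Intact had 23.2 CPM and VCD_E2_ICI 1.84 CPM. Esr1 kept within 63.5 to 90.5 CPM over all 12 libraries, and VCD_Low_E2, the first library for Pgr and Greb1, was the 11th for Esr1. Without thinning, both the share of cells with Pgr and the Pgr UMIs in each such cell differed. In VCD_Low_E2 448 of 1200 cells held 1497 Pgr UMIs (3.34 a cell with Pgr). In Intact 213 of 885 cells held 898 (4.22), and in VCD_E2_ICI 32 of 753 cells held 35 (1.09). A lower level or depth can by itself lower both values, so these counts cannot say where the difference lay. In thinned cells the share with Pgr was 11.3% in Intact and 1.49% in VCD_E2_ICI.

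**Figure D3:**
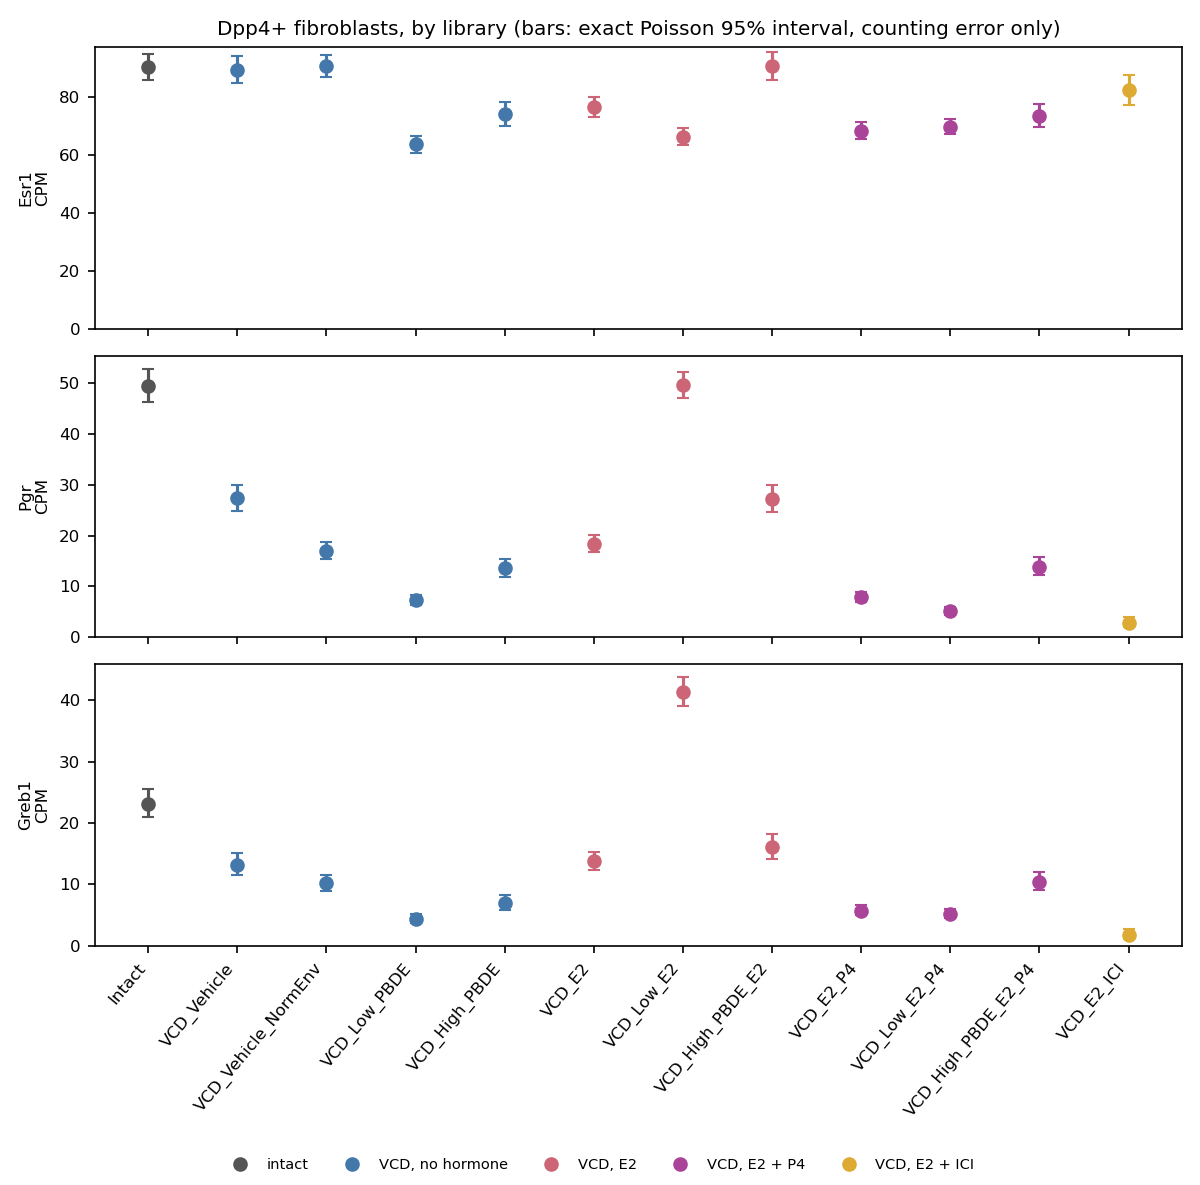
Esr1, Pgr and Greb1 in Dpp4+ fibroblasts of each of the 12 libraries, in CPM on axes from 0, coloured by hormone, with exact Poisson 95% intervals that cover counting error only. Pgr and Greb1 are highest in VCD_Low_E2 and lowest in VCD_E2_ICI, and Esr1 stays between 63.5 and 90.5 CPM.

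Whether E2 changed the members was tested over 9 VCD libraries, 3 hormone levels by 3 PBDE levels, as the mean of the 6 libraries with E2 against the 3 without, with PBDE as an additive term. In Dpp4+ fibroblasts 0 of 7 members passed, where 15.3% of 13671 genes did (7.84% higher, 7.48% lower), and in all fibroblasts 0 of 7, where 19.0% did (10.1% higher, 8.90% lower). Without VCD_High_PBDE, however, Nrip1 fell by 0.47 on the log2 scale in Dpp4+ cells (adjusted p = 0.021) and Nr3c2 by 0.52 in all fibroblasts (adjusted p = 0.033). In Dpp4+ cells the log2 fold was 0.12 ± 0.52 for Pgr (adjusted p = 0.91), with 3 of 6 matched libraries higher, and 0.66 ± 0.52 for Greb1 (adjusted p = 0.41), with 5 of 6 higher. For E2 alone it was 1.05 for Pgr (adjusted p = 0.28) and 1.50 for Greb1 (adjusted p = 0.14). The single ratios of E2 to no hormone differed with PBDE: for Pgr 0.672 without PBDE, 6.84 at low and 2.00 at high PBDE, and for Greb1 1.04, 9.50 and 2.33. The difference was tested with terms for E2 by PBDE, with P4 shared over the PBDE levels, a fit with 2 residual degrees of freedom that was added after the ratios were seen. The log2 fold of E2 at low PBDE minus that without PBDE was 2.47 ± 0.93 for Pgr (adjusted p = 0.74) and 2.44 ± 0.94 for Greb1 (adjusted p = 0.74), and at high PBDE minus that without it was 1.67 ± 0.93 (adjusted p = 0.75) and 1.47 ± 0.95 (adjusted p = 0.78). By edgeR 0 of 14107 genes (0%) passed for either term, with 917 and 1065 at an unadjusted p under 0.05, and DESeq2 called 24 and 75 genes and no member. Without VCD_Low_E2 the differences at low PBDE were 1.10 and 1.17. The deposited file names have 2 kinds of suffix of unstated meaning. At low PBDE the library without hormone has the first kind and those with E2 the second, whereas without PBDE and at high PBDE all 3 libraries share a kind.

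With P4 added to E2, Pgr and Greb1 were lower at each of the 3 PBDE levels, but the fibroblast tests did not pass. In Dpp4+ fibroblasts the ratio of E2 with P4 to E2 alone was 0.431, 0.104 and 0.511 for Pgr (no, low and high PBDE) and 0.416, 0.126 and 0.648 for Greb1. The log2 fold was -1.87 ± 0.60 for Pgr (adjusted p = 0.45) and -1.69 ± 0.57 for Greb1 (adjusted p = 0.46), and without VCD_Low_E2 they were -0.93 and -0.74. In Dpp4- fibroblasts it was -2.67 for Pgr (adjusted p = 0.16) and -1.80 for Greb1 (adjusted p = 0.16), and without VCD_Low_E2 -0.99 and -0.71. For P4, 0 members passed in any fibroblast gate, where 0.00731% of genes passed in Dpp4+ cells, 0.115% in Dpp4- cells and 0.0205% in all fibroblasts.

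Luminal cells gave the one P4 call. Pgr was at 106 CPM in VCD_Vehicle and 90.5 CPM in VCD_Low_PBDE, at 167 CPM in VCD_E2 and 168 CPM in VCD_Low_E2, and at 24.8 CPM in VCD_E2_P4 and 56.0 CPM in VCD_Low_E2_P4. Both libraries with P4 were thus below all 4 without. The log2 fold of P4 was -2.04 ± 0.36 (adjusted p = 0.030), lower in 2 of 2 matched pairs, and Pgr was the only one of 5 members tested that passed, where 1.91% of 6134 genes did (1.34% lower, 0.571% higher). The fit rests on 10 to 41 cells a library and 2 residual degrees of freedom. Pgr gave 10 UMIs in 5 cells of VCD_E2_P4 and 21 UMIs in 9 cells of VCD_Low_E2_P4. In VCD_E2 and VCD_Low_E2 it gave 112 and 115 UMIs, in 14 cells each. The gate did not separate hormone-sensing cells from other luminal cells, and a change in their share was not tested. Without VCD_E2_P4 the log2 fold was -1.65 (adjusted p = 0.074), and without VCD_Low_E2_P4 it was -2.67 (adjusted p = 0.014). Other values moved with P4: the summed luminal markers were 11858 CPM in VCD_E2_P4 and 9454 CPM in VCD_Low_E2_P4, against 17319 to 24415 CPM in the 4 libraries without P4, and the basal epithelial markers reached 338 CPM in VCD_E2_P4. Their part in the result was not tested.

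Nrip1 in luminal cells was also lower with P4, with 164 and 131 CPM in the 2 libraries with P4 and 235 to 436 CPM in the other 4. It did not pass (log2 fold -1.35 ± 0.35, adjusted p = 0.11). Esr1 in luminal cells overlapped between these libraries (-0.38 ± 0.35, adjusted p = 0.66). Among the listed genes, the receptor cochaperone Fkbp5, a classical target of glucocorticoid and progesterone receptors, rose with P4 by 3.63 ± 0.74 (adjusted p = 0.0495), a call that was lost without any of 5 of the 6 libraries, for example without VCD_E2_P4 (3.22, adjusted p = 0.51). For E2 in luminal cells 0 of 5 members passed, where 1.89% of genes did, and the log2 fold of Pgr was -0.23 ± 0.32. This averages E2 with E2 and P4, and E2 alone gave 0.79 (adjusted p = 0.43). This fit has the same few cells and residual degrees of freedom as that of P4.

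**Figure D4:**
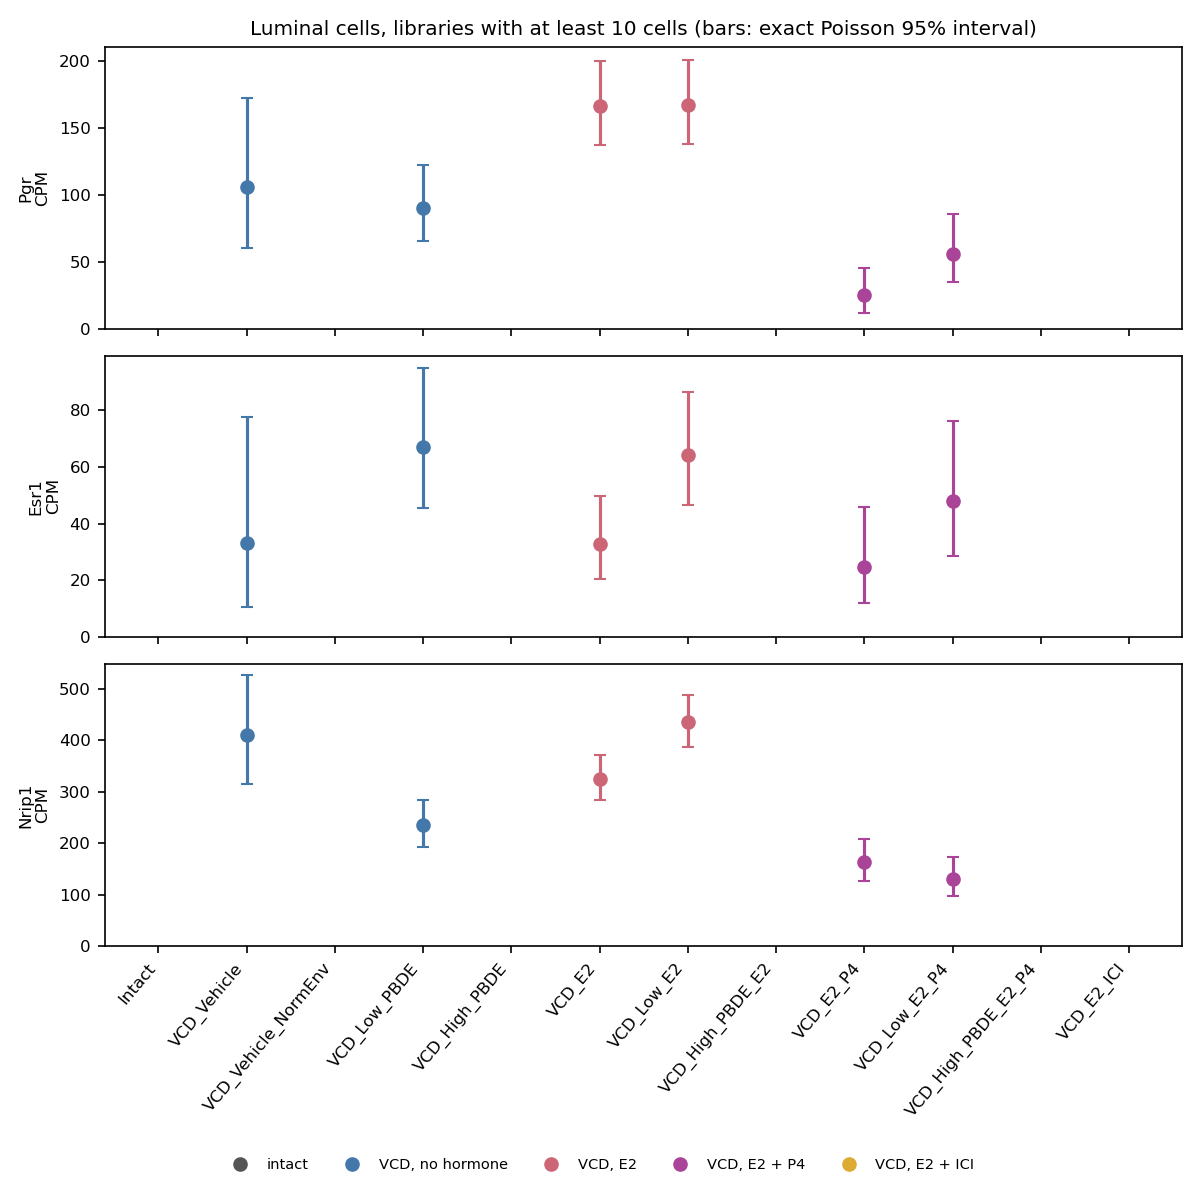
Pgr, Esr1 and Nrip1 in luminal cells of the 6 libraries with at least 10 such cells, in CPM on axes from 0, coloured by hormone, with exact Poisson 95% intervals. The 2 libraries with P4 are the lowest for Pgr (24.8 and 56.0 CPM) and for Nrip1 (164 and 131 CPM).

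Esr1 gave the one E2 call among the members, in Dpp4- fibroblasts. It was at 40.9, 34.1 and 42.7 CPM without hormone (no, low and high PBDE), at 39.5, 30.8 and 30.4 CPM with E2, and at 19.8, 23.7 and 28.5 CPM with E2 and P4. It fell by 0.50 ± 0.13 on the log2 scale (adjusted p = 0.026), lower in 6 of 6 matched pairs, although the groups overlapped, and 1 of 7 members passed where 19.8% of 13033 genes did (8.46% lower, 11.4% higher). E2 with P4 against no hormone gave -0.76 (adjusted p = 0.0085), and E2 alone against no hormone gave -0.25 (adjusted p = 0.37). Among the Dpp4- gates the log2 fold was -0.75 in Fabp4+ cells (adjusted p = 0.014) and -0.12 in F3+ cells (adjusted p = 0.81), where VCD_Low_E2 was the highest of the 12 libraries at 42.9 CPM. In Tnc+ cells Esr1 did not pass the filter on low counts.

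The Esr1 call was lost without some libraries while the log2 fold stayed near -0.50. It was -0.49 without VCD_Vehicle (adjusted p = 0.099), -0.57 without VCD_Low_PBDE (adjusted p = 0.063), -0.50 without VCD_Low_E2 (adjusted p = 0.062) and -0.46 without VCD_High_PBDE (adjusted p = 0.088). With a term for the file suffix the log2 fold was -0.57 (adjusted p = 0.067). Within the first suffix the 2 libraries with E2 had a mean of 29.7 CPM and the 2 without 37.5 CPM. Within the second the 4 with E2 had 28.4 CPM and the only one without 42.7 CPM. Markers of other cells moved with E2 in these fibroblasts: the summed pericyte markers were 30.6 to 35.6 CPM without hormone and 17.2 to 24.0 CPM with E2, the adipocyte markers 2.86 to 4.92 CPM and 7.45 to 55.0 CPM, and the basal epithelium markers 3.54 to 4.45 CPM and 5.45 to 30.1 CPM. Their part in the result was not tested.

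The E2 effect on Esr1 was also compared between the gates. In Dpp4+ fibroblasts Esr1 did not pass, and the effect in Dpp4+ minus that in Dpp4- cells was 0.50 ± 0.16 on the log2 scale and did not pass (adjusted p = 0.087). Without VCD_E2 it was 0.62 and passed (adjusted p = 0.023). For this interaction 0 of 7 members passed, where 9.32% of 13716 genes did.

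**Figure D5:**
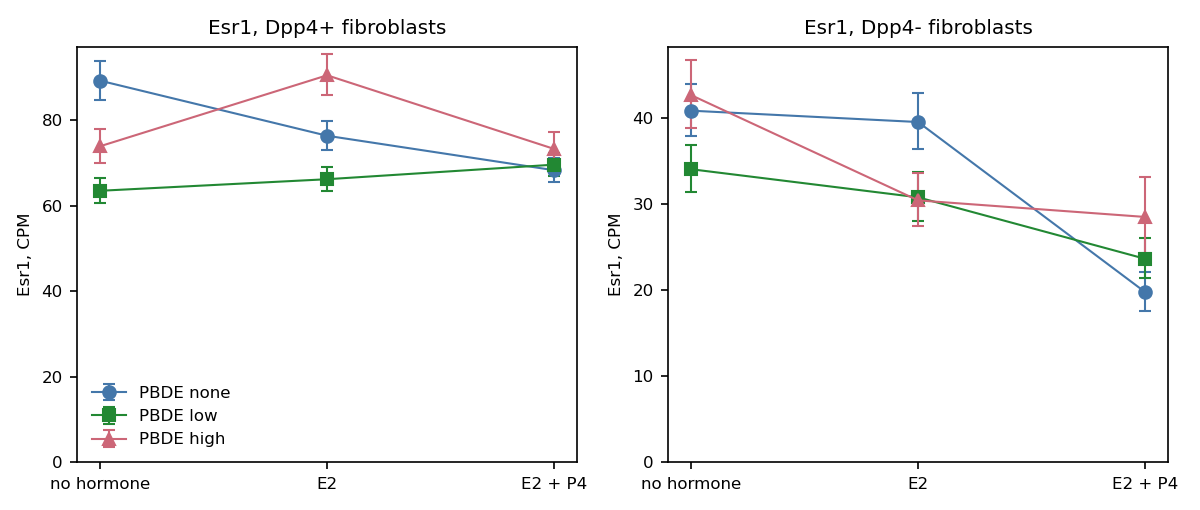
Esr1 in Dpp4+ (left) and Dpp4- (right) fibroblasts of 9 VCD libraries, in CPM on axes from 0, by hormone, with 1 line per PBDE level and exact Poisson 95% intervals that cover counting error only. In Dpp4- cells the 3 libraries with E2 and P4 are the lowest.

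The wider lists were also read for E2. In all fibroblasts 4 of 10 chaperones fell and none rose, where 8.90% of all genes fell and 10.1% rose, with a median log2 fold of -0.13 against -0.01 over all genes. Hsp90aa1, the inducible form of the chaperone that holds unliganded receptors, fell by 0.51 ± 0.08 on the log2 scale (adjusted p = 0.0083), Hspa8 by 0.35, the immunophilin Fkbp4 by 0.29 and Stip1 by 0.28. Markers of other cells moved with E2 here too: without hormone and with E2, the adipocyte markers were 1.22 to 3.30 CPM and 3.41 to 14.2 CPM, and the basal epithelium markers 4.17 to 4.90 CPM and 5.13 to 13.2 CPM. Their part in the result was not tested. Of 14 coregulators tested 1 fell, Pias1, by 0.24, and none rose. Of 7 other receptors 1 fell, Paqr6, by 1.06. In Dpp4+ cells, where 7.48% of genes fell and 7.84% rose, 3 of 10 chaperones fell, among them Fkbp4 by 0.34 and Hsp90aa1 by 0.39, 0 of 14 coregulators passed, and Paqr7, 1 of 7 other receptors, rose by 0.57. In Dpp4- cells, where 8.46% of genes fell and 11.4% rose, 2 of 10 chaperones fell (Hspa8 by 0.43, Hsp90aa1 by 0.57) and Bag1 rose by 0.28, and of 14 coregulators 2 fell (Pias1 by 0.34, Ncoa3 by 0.47) and Prmt1 rose by 0.35. The Hspa8 call in Dpp4- cells held in each of 9 sets with 1 library left out, with log2 folds of -0.49 to -0.39. Without VCD_Low_PBDE, which leaves 2 libraries without hormone, the calls in all fibroblasts were lost for Hsp90aa1 (-0.46, adjusted p = 0.051), Hspa8 (-0.32, adjusted p = 0.058) and Fkbp4 (-0.24, adjusted p = 0.085). So were those of Stip1 (-0.22), Pias1 (-0.22) and Paqr6 (-0.88) there, of Paqr7 in Dpp4+ cells (0.60) and of Bag1 (0.27), Prmt1 (0.41) and Pias1 (-0.38) in Dpp4- cells, and each of these held in 1 to 5 of the 9 sets. That of Ncoa3 (adjusted p = 0.049) held in 2 of the 9 sets.

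edgeR called no member for PBDE. For low PBDE no gene at all passed in any of the fibroblast gates, immune cells or luminal cells (0% called by edgeR), with 575 genes in Dpp4+ fibroblasts at an unadjusted p under 0.05 and 10 by DESeq2. For high PBDE 0 of 7 members passed in fibroblasts, where 0.315% of genes did, nor in Dpp4+ (0.154%) or Dpp4- cells (0.169%). Nrip1 came nearest. In all fibroblasts it was at 108, 93.1 and 79.3 CPM without PBDE (no hormone, E2, E2 with P4), at 113, 101 and 91.6 CPM at low PBDE and at 117, 151 and 135 CPM at high PBDE. Each of the 3 libraries at high PBDE was above its match and above every library without PBDE, and the log2 fold was 0.49 ± 0.13 (adjusted p = 0.10). It passed by DESeq2 (adjusted p = 0.014) and without VCD_High_PBDE (0.68, adjusted p = 0.024), and over all settings and left-out libraries the adjusted p ran from 0.014 to 0.39. All 3 libraries at high PBDE have the second kind of file suffix and all 3 without PBDE the first, and with a term for the suffix the log2 fold was 0.74 (adjusted p = 0.39).

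In immune cells edgeR called no member. Of 4 members tested 0 passed for E2, P4, low or high PBDE, where edgeR called 0% of 12029 genes in each. At an unadjusted p under 0.05 the counts were 880, 822, 528 and 992 genes, and DESeq2 called 49, 6, 1 and 30. For E2 the log2 fold of Nr3c1 was -0.32 ± 0.14 (adjusted p = 0.68), with 5 of 6 matched libraries lower.

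The groups outside the layout had 1 library each and no test, so their intervals cover counting error only. VCD_E2_ICI and VCD_Vehicle_NormEnv have the second kind of file suffix, and VCD_E2, VCD_Vehicle and Intact the first. Between VCD_E2_ICI and VCD_E2 in Dpp4+ fibroblasts the ratio was 0.152 for Pgr (95% interval 0.105 to 0.215) and 0.134 for Greb1 (0.0835 to 0.204), from 35 and 23 UMIs in VCD_E2_ICI. For Esr1, whose protein ICI degrades, the transcript ratio was 1.08 (0.997 to 1.16), and in Dpp4- cells it was 1.36 (1.21 to 1.53), where VCD_E2_ICI was the highest of the 12 libraries. Nr3c1 (0.974), Nr3c2 (0.948) and Nrip1 (1.04) had intervals that included 1, and Pgrmc1 had a ratio of 0.868 (0.818 to 0.921). Between Intact and VCD_Vehicle the ratio was 1.81 for Pgr (1.62 to 2.03), 1.75 for Greb1 (1.48 to 2.07), 1.01 for Esr1 (0.941 to 1.08) and 0.715 for Nrip1 (0.670 to 0.763). The shares of thinned cells with Pgr were closer, at 11.3% in Intact and 9.91% in VCD_Vehicle. In Dpp4- cells the same pair gave 0.364 for Pgr (0.160 to 0.756, from 10 and 33 UMIs), 0.799 for Esr1 (0.710 to 0.898) and 1.39 for Greb1 (0.997 to 1.93). Between VCD_Vehicle_NormEnv and VCD_Vehicle it was 0.622 for Pgr (0.542 to 0.713), 0.771 for Greb1 (0.639 to 0.930) and 1.01 for Esr1 (0.948 to 1.08). The 3 libraries without hormone in the layout spread from 7.25 to 27.4 CPM for Pgr, a range that held VCD_Vehicle_NormEnv, while Intact lay above it and VCD_E2_ICI below it.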

How the data were processed

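The 12 libraries were made with the Chromium v3 3′ chemistry. The deposited values are UMI counts per gene and cell, made by the authors with Cell Ranger 3.1.0 on mm10, with filtered barcodes and no other normalization. The labels name a HiSeq and the study's methods a NovaSeq. Barcodes below 500 genes or 1000 UMIs, or above 5% mitochondrial UMIs, were dropped, and no doublet caller was run. Gates used raw UMIs of marker genes: fibroblasts needed Col1a1 and Pdgfra and no Epcam, Krt14, Ptprc, Cd52, Pecam1 or Cspg4. UMIs were summed per library and gate and tested with edgeR 4.0.16 in R 4.3.3 (quasi-likelihood test, TMM, filterByExpr, Benjamini-Hochberg adjustment, threshold 0.05), with all residual spread taken between libraries. Levels are CPM of these sums. In the hormone and PBDE fits, p-values rest on the departure of libraries from the terms fitted. With no replicate library, this mixes spread between libraries, which may be technical, with any interaction not fitted. In the fits between gates or cell types, they rest on the spread of the difference over libraries. Single-library ratios have exact 95% intervals for counting error only. DESeq2 1.42.0 and other filters, gates and libraries were alternatives. Gene positions came from the GENCODE annotation and promoters from RefSeq GRCm38.p6. Of the listed genes, all members were read in each comparison, and some are given only as counts. Up to 6 others were named by adjusted p. Some listed genes are not reported here and were left out of the list counts. The members and lists were chosen with earlier results of these data known. The fits were tested on simulated data.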

Additional observations from a re-analysis of the deposited data

Results flagged for a closer look

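Among the 6 libraries of the layout with E2, VCD_Low_E2 stood apart from the other 5 by Dixon's test in 4 of 23 sets of values, and chance flags about 1 in 20 such sets. The sets share libraries and are not independent, so their flags can occur together and the count cannot be set against that rate. Greb1 in Dpp4+ fibroblasts was at 41.4 CPM in VCD_Low_E2, with the next library at 16.1 CPM. In Dpp4- fibroblasts Pgr was at 7.30 CPM with the next at 1.23 CPM, and Greb1 was at 15.4 CPM with the next at 4.08 CPM. Nrip1 in immune cells was at 196 CPM with the next at 134 CPM.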

How the results depend on the processing

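No paired analysis was possible because each group is 1 library, so that replicate numbers pair no libraries. The library block between cell types and the PBDE term belong to the fits themselves. For E2 1 member was called, and 0 with a term for the file suffix, for E2 alone, in F3+ fibroblasts only (added after seeing the data) or in Tnc+ fibroblasts only (Esr1 not tested), and 0 to 3 with 1 library left out. For P4 1 was called, and 2 without a filter on low counts, by DESeq2, with gates per 10000 UMIs or without the 2% of cells with most UMIs, and 0 to 2 with 1 library left out. For high PBDE 0 were called, and 2 by DESeq2 and 0 to 2 with 1 library left out, and for the interaction 0, and 0 to 1. Over all genes DESeq2 called 758, 479 and 257 for high PBDE in fibroblasts, Dpp4+ and Dpp4- cells. For P4 it called 116, 101 and 243 in these gates and 99 in luminal cells. The counts of members were not tested against the share of all genes called in the same setting. For E2 by PBDE 0 were called, and 0 to 2 with 1 library left out: Nrip1 in Dpp4+ cells at high PBDE without VCD_High_PBDE_E2_P4, and Pgr in Dpp4- cells at low PBDE without that library or VCD_High_PBDE_E2. Without a library that had no hormone the fit with both terms could not be made. The ratio of the shares of Dpp4+ cells with Pgr in VCD_Vehicle_NormEnv to VCD_Vehicle was 0.901, and 0.672 after thinning to 5000 UMIs. The log2 fold of Pgrmc1 between fibroblasts and luminal cells changed sign at a mitochondrial limit of 10% (-0.0039). The causes were not tested.

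Counts of all genes called moved more. E2 called 2768 genes in fibroblasts (763 with the suffix term, 768 without VCD_Low_PBDE), 2095 in Dpp4+ cells (358 and 350), 2585 in Dpp4- cells (602 for E2 alone, 1215 without VCD_Low_PBDE) and 116 in luminal cells (5 with the suffix term, 558 without a filter, 5 without VCD_Low_PBDE, 455 without VCD_E2). P4 called 3, 1 and 15 genes in fibroblasts, Dpp4+ and Dpp4- cells, and 116, 101 and 243 by DESeq2, with 4 in Dpp4- cells under looser gates, which were chosen after seeing the data. Leaving out 1 library gave 0 to 14, 0 to 8 and 0 to 107, the most without VCD_High_PBDE_E2 each time. In luminal cells P4 called 117, and 464 without a filter and 412 without VCD_E2. High PBDE called 46, 21 and 22 genes in the same gates, and 758, 479 and 257 by DESeq2 and 0 in each with the suffix term, and 0 to 62, 0 to 132 and 1 to 74 with 1 library left out, the most without VCD_High_PBDE. Low PBDE called 0, and 6, 10 and 6 by DESeq2, with 51 in luminal cells without a filter and 113 without VCD_E2. The interaction called 1278 genes, and 667 by DESeq2 and 298 without VCD_Low_PBDE. Fibroblasts and luminal cells differed in 8533 genes, and in 5396 without the 2% of cells with most UMIs.

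The 178 luminal and 164 endothelial cells limit the precision there, and Esr2 and Gper1 were too sparse to compare between treatments.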
